A study of Mus musculus with 8 samples.

Results

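The RNA of Foxd1-mutant hypothalamus was followed from embryonic day E12 to E17.5, in 4 of the 8 libraries of the study. The libraries were mutant E12.0, mutant E12.5 and mutant E17.5 replicates 1 and 2. Rows of the deposited tables were summed by gene symbol, and the members are the 12484 symbols, of 22725 found in both the E12 and the E17.5 tables, with a mean over the 4 mutant libraries of at least 1 FPKM (fragments per kilobase of transcript, scaled to sequencing depth, a level per length). Of these, 11283 averaged 1 FPKM or more at each stage, 1016 entered through E17.5 alone and 185 through E12 alone. Just inside the limit lay 4931440P22Rik and Dkk2, at 1.0004 and 1.0008 FPKM, and just outside it Smim3 and Dnah7b, at 0.999 and 0.998 FPKM.

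Foxd1 encodes a forkhead transcription factor of the embryonic hypothalamus. The mutant embryos were Foxd1-null, 8 of them in the whole study against 10 controls, and each library was made from pooled RNA. The labels say that a control could be wild-type or Foxd1-mutant and do not say more, so the genotype of the controls is not certain, and the wild-type groups (E12.0, E12.5 and E17.5 replicates 1 and 2) are named here as their library labels give them. No label says how many embryos made up a pool or whether the E17.5 replicates were separate litters, so their spread may be technical. The account of dissection names E12.5 and E17.5 only, and E12.0 was taken from the library labels.

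In these days of mouse development the hypothalamus passes from a sheet of dividing progenitors to a tissue of neurons. Progenitors are kept by Notch signalling and SOX factors, proneural factors commit their daughters to a neuronal fate, and regional transcription factors direct those daughters into the nuclei that later control hormones, feeding and sleep. Neurons then acquire synapses, receptors, ion channels and neuropeptides, and progenitors turn to making astrocytes and oligodendrocytes while vessels and meninges mature.

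The E12 tables gave values per gene and the E17.5 tables values per transcript, and they were made separately, so stage and table cannot be told apart. The difference between stages is therefore described and not tested. It is given as the mean of log2(FPKM + 1) at E17.5 minus that at E12, and a gene is counted as higher or lower at E17.5 where this is at least 1 in size and the E17.5 pair of libraries did not overlap with E12.0 and E12.5. A factor that all libraries of a table share drops out when genotypes are compared on a log scale. With 1 FPKM added, it drops out only in part for genes at low levels. With that limit, what can be tested is whether the stage difference of the mutant was other than that of the wild-type libraries. This used limma on all 8 libraries, two-sided, with p adjusted over 12519 genes.

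Foxd1 checked the labels first. Its FPKM was 2.77 at E12.0, 2.50 at E12.5, and 0.396 and 0.230 at E17.5 in the mutant, against 25.0, 30.3, and 3.90 and 1.96 in wild-type. Every mutant library lay below every wild-type library of its stage, and which part of the gene the allele lacks is not given in the sources used here. The libraries of a stage resembled each other, with a Pearson correlation across members of 0.971 between E12.0 and E12.5 and of 0.987 between the E17.5 replicates, and of 0.793 to 0.842 between stages. The median member differed by 0.10 on the log2 scale between the E17.5 replicates, and 45 members differed by at least 2-fold. E12.5 lay above E12.0 for 91.7% of members, with a median of 0.35, so levels of these 2 libraries differ broadly. Small RNA genes took 21.5% of FPKM at E12.0, 14.9% at E12.5 and 15.2% and 10.2% at E17.5. The E17.5 replicate 2 stood apart in choroid plexus and telencephalic genes, with Ttr at 333 FPKM against 4.76 in replicate 1.

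Most of what separated the stages in the mutant also separated them in wild-type. By the rule of 2-fold with no overlap, 2479 members were higher at E17.5 and 674 lower, which is 19.9% and 5.4% of members, and 9331 were neither. At E12.5, 302 of the lower genes, or 44.8%, were below E12.0, as 8.1% of all members were. Their median difference between E12.5 and E12.0 was 0.03, against 0.35 over members. Of the higher genes 91.8% were above E12.0 at E12.5, as 91.7% of all members were. Both sets were chosen on these same E12 values. Higher genes made up 78.6% of those counted, but 57.0% after quantile normalization. The share was 62.9% after differences were taken relative to the median member, whose own stage difference was 0.27. Of the 11283 members that averaged 1 FPKM or more at each stage, 1723 were higher and 593 lower, which put it at 74.4%. Of the 2479 genes higher in the mutant, 86.9% were also higher in wild-type, and of the 674 lower, 87.1% were also lower. Over all 22725 symbols, wild-type had 11.2% higher and 3.16% lower. Among the 12484 members it had 2398 higher and 705 lower. None was higher in the mutant and lower in wild-type, and only Hist1h2ba was the reverse. Both genotypes share the 2 table types, so this likeness is a description.

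**Figure D1:**
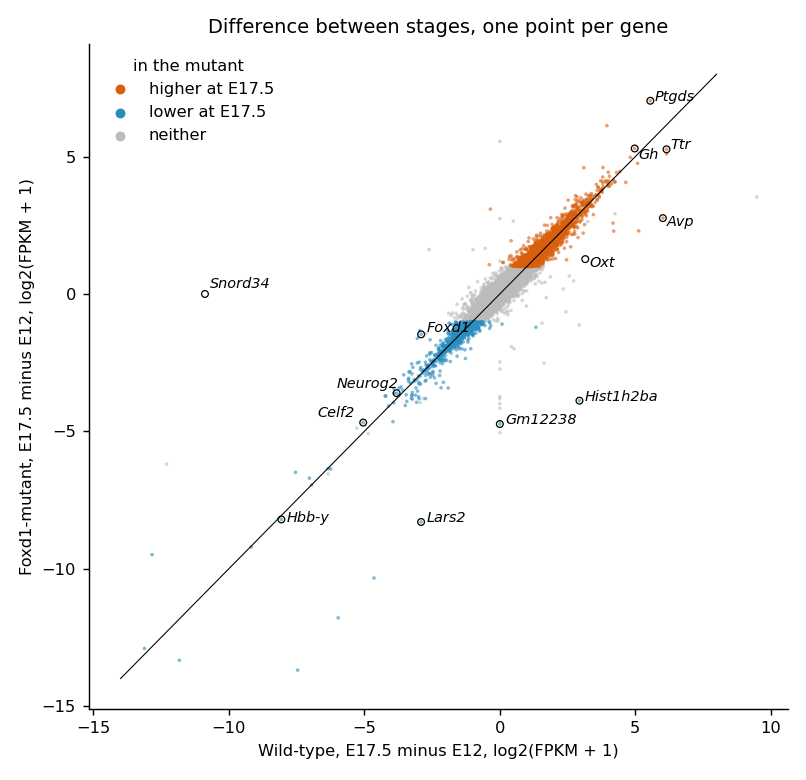
Stage difference (E17.5 minus E12, log2 of FPKM + 1) of each of the 12484 members in wild-type (horizontal) and in the mutant (vertical), coloured by whether the gene was higher or lower at E17.5 in the mutant, with the line of equality. Circled genes are named in the text, among them Oxt and Snord34, which are not members; Avp, Oxt and Hist1h2ba lie below the line and Foxd1 and Snord34 above it.

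At least 16-fold differences were found for 26 genes that were higher and 19 that were lower. Ptgds, a prostaglandin synthase made by meninges and choroid plexus, showed the widest of those that were higher, with 0.430 and 0 FPKM at E12.0 and E12.5 and 256 and 94.3 FPKM at E17.5. Tnc, an extracellular matrix protein of glia, was at 0.0883 and 0.368 FPKM at E12 and at 36.3 and 38.4 FPKM at E17.5. Slc6a11, a GABA transporter of astrocytes, stood at 0.141 and 0.644 against 32.6 and 26 FPKM. These genes were all but absent from both early libraries. Slc6a7, the proline transporter of synaptic terminals, stood at 0.0785 and 0.233 against 23.4 and 16.5 FPKM. Gng4, a G protein gamma subunit, was at 0.988 and 1.73 FPKM and then at 46.5 and 42.4 FPKM. Pcp4, a calmodulin regulator of neurons, was at 6.19 and 18.9 FPKM and then at 209 and 206 FPKM, and Ndrg2, an astrocyte protein, at 1.55 and 7.97 and then at 83.2 and 78.8 FPKM. In Slc6a11, Gng4, Pcp4 and Ndrg2, E12.5 already exceeded E12.0 by more than the median member did.

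In the other direction, Dbx1, a homeobox gene of hypothalamic progenitors, was at 24.8 and 42.6 FPKM at E12 and at 1.16 and 0.829 FPKM at E17.5. Hsd11b2, the enzyme that inactivates glucocorticoids, was at 15.4 and 14.7 FPKM and then at 0.248 and 0.236 FPKM. Gdf1, a TGF-beta family ligand, was at 10.6 and 21.7 FPKM and then at 0.447 and 0.0432 FPKM. All 4 wild-type libraries of these 3 genes followed the same order of stages. Several of the widest lower values are uncertain. Celf2 was listed at 0 in every E17.5 library of both genotypes after 21.4 and 28.4 FPKM, and an exact 0 can be a failed estimate. Fst, Mia2 and Rps27 did not rest on the same transcript accessions in the 2 tables. Rps27, Rpl26, Rpl34 and Rpl30 have near-identical copies that can take their reads, and Lars2 stood at 286 and 5076 FPKM in the mutant and at 0 and 1825 FPKM in wild-type at E12.0 and E12.5, so its level was not stable between libraries.

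**Figure D2:**
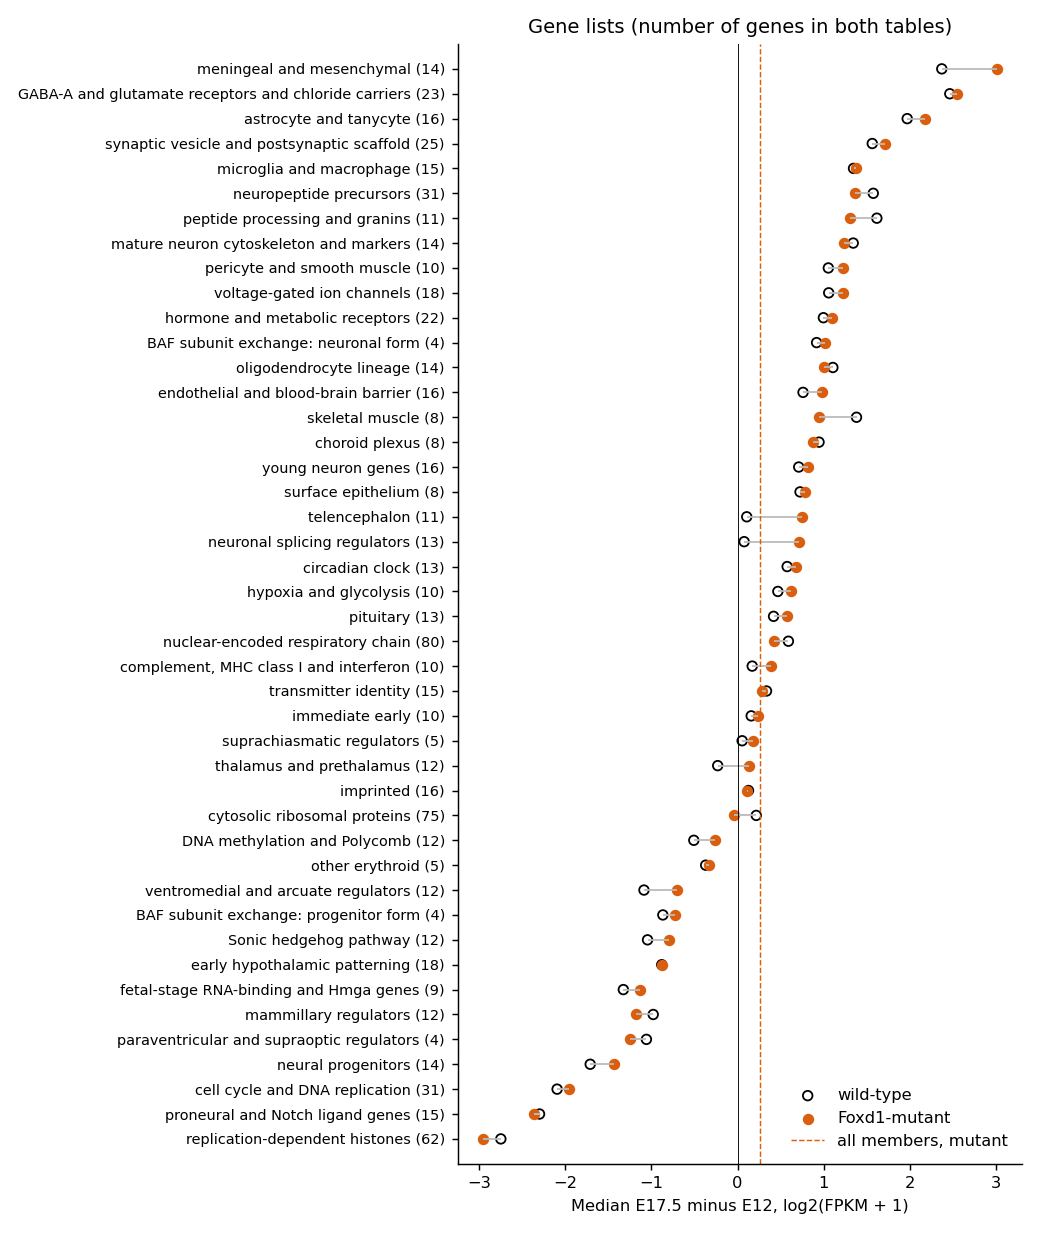
Median stage difference (E17.5 minus E12, log2 of FPKM + 1) of each gene list in wild-type (open) and in the mutant (filled), with the number of genes in both tables and the median over all members (dashed). Histone, proneural, cell cycle and progenitor lists lie lowest and meningeal, receptor and astrocyte lists highest; the 3 embryonic globins, at a median of -6.71, are left out.

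Genes of cell division were lower at E17.5 almost without exception. Of 31 genes of the cell cycle and DNA replication, 30 were lower and none higher. Among all 22725 symbols 3.01% were lower and 11.6% higher, and among members, which all 31 are, 5.4% and 19.9%. The median stage difference of the 31 genes was -1.95, against 0.04 over all symbols, and -2.09 in wild-type. In bulk tissue, fewer dividing cells and less of these RNAs per cell cannot be told apart. Ccnd1, the cyclin that drives entry into the cycle, was at 114 and 109 FPKM at E12 and at 12.4 and 14.1 FPKM at E17.5, an 8.42-fold difference of the means. Cenpa, the histone that marks centromeres, was at 36.8 and 37.6 and then at 4.16 and 4.86 FPKM. Ccnb1, the cyclin of mitosis, was at 70.8 and 60.6 and then at 8.35 and 9.87 FPKM. In each of the 3 the E12 libraries were close to each other, as were the E17.5 libraries, and the stages were far apart. Rrm2, a subunit of the enzyme that supplies DNA precursors, was at 69.5 and 53.9 and then at 8.58 and 10.7 FPKM. Ccne1, the member that was not counted, was at 6.43 and 5.92 and then at 3.50 and 4.10 FPKM, and is named after its values were seen. Already at E12.5, 29 of the 31 genes were below E12.0, as 8.1% of members were. None of the 31 passed the limma test between genotypes.

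The promoters of this group are shown because their members moved together. The RefSeq table (GRCm38.p6) held promoters for 26 of the 31 genes, 27 in all, and the 250 bases before each start were searched on both strands for CCAAT, the box bound by NF-Y, for TTTGAA, the core of the cell cycle homology region, and for GGCGGGAA, a form of the E2F site. CCAAT was found in 22 of the 27, or 81.5%, against 33.8% of all 32851 promoters in the table. TTTGAA was found in 7, or 25.9%, against 16%, each time in a promoter that also held CCAAT. GGCGGGAA was found in 1, or 3.7%, against 1.86%. In the 27 promoters of 16 synaptic genes, CCAAT was found in 4, or 14.8%. In the 15 promoters of the proneural and Notch ligand genes it was found in 8, or 53.3%. It was also found in 47.7% of the 597 promoters of all members lower at E17.5 and in 30.6% of the 2506 promoters of those higher. A match is a stretch of letters and says nothing of binding. Below are 3 of the 4 cell cycle genes named above, then Cdc20, an activator of mitotic exit chosen after its matches were seen for holding both motifs, and Camk2b, the synaptic gene with the widest stage difference, for contrast; capitals mark CCAAT or its complement ATTGG, and TTTGAA. The windows are chr5:30666636-30666885, plus strand, for Cenpa; chr13:100786487-100786736, minus strand, for Ccnb1; chr12:24708004-24708253, plus strand, for Rrm2; chr4:118437344-118437593, minus strand, for Cdc20; and chr11:6065749-6065998, minus strand, for Camk2b.
Cenpa: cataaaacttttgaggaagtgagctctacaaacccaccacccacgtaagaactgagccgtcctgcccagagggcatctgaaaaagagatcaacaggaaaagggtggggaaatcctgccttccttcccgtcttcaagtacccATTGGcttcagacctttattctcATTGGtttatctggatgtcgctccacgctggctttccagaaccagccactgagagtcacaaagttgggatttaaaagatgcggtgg
Ccnb1: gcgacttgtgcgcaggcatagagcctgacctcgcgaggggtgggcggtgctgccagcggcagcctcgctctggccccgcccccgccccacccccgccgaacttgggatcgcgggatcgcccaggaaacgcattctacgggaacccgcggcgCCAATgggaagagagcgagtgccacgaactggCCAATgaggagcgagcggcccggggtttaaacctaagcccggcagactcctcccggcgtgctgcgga
Rrm2: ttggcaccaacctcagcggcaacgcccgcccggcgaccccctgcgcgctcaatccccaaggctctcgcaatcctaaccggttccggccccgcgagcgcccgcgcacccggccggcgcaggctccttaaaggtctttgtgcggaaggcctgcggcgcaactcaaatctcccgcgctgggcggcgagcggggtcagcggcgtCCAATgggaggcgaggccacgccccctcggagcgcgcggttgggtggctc
Cdc20: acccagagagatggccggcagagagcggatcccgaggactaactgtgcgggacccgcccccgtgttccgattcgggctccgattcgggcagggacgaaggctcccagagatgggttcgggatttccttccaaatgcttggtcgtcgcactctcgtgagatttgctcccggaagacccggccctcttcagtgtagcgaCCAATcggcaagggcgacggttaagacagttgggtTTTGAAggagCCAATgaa
Camk2b: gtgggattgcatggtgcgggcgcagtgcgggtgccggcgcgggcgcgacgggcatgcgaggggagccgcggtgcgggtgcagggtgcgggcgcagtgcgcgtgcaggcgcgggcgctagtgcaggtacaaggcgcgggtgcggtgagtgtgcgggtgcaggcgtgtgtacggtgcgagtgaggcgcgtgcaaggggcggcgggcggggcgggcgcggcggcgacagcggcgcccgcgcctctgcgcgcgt

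Counted by its first base from the start, CCAAT lay 109 and 86 bases before that of Cenpa, on the opposite strand, and 99 and 67 before that of Ccnb1. In Rrm2 it lay 50 bases before the start. In Cdc20 it lay 53 and 8 bases before it, with TTTGAA between them at 18. The Camk2b window held neither. Cdc20 itself was at 49.8 and 46.6 FPKM at E12 and at 7.95 and 8.68 FPKM at E17.5.

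Progenitor genes were lower too, with 13 of 14 lower and 1 higher (median -1.44). Sox3, a SOX factor of dividing progenitors, was at 39.0 and 49.9 FPKM at E12 and at 6.0 and 4.29 FPKM at E17.5. Hes5, a target of Notch, was at 164 and 176 and then at 26.3 and 20.8 FPKM, and Nes, the intermediate filament nestin, at 110.3 and 123 and then at 24 and 29.2 FPKM. The exception was Fabp7, the fatty acid binding protein of radial glia and young astrocytes, named after its values were seen, with 236 and 348 FPKM at E12 and 1092 and 1046 FPKM at E17.5. It was higher in wild-type as well.

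The proneural and Notch ligand genes, which act as progenitors become neurons, had 12 of 15 lower and none higher (median -2.36). Neurog2, a proneural factor, was at 62.8 and 64.5 and then at 3.08 and 5.86 FPKM, a 14.2-fold difference of means. Dll3, a Notch ligand of newborn neurons, was at 42.2 and 43.2 and then at 2.72 and 2.81 FPKM, and Mfng, which modifies Notch, at 58.5 and 61.3 and then at 5.03 and 5.82 FPKM. Unlike the cell cycle genes, 12 of these 15 were higher at E12.5 than at E12.0, near the share of all members. Among 9 fetal-stage RNA-binding and Hmga genes, 6 were lower and none higher. Igf2bp1, which binds mRNAs in fetal tissue, was at 29.6 and 24.4 and then at 1.52 and 1.82 FPKM, and Hmga2, a chromatin protein of fetal stem cells, at 8.72 and 7.45 and then at 0.398 and 0.452 FPKM. Igf2bp3 and Igf2bp2 were 5.67-fold and 3.78-fold lower by their means.

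Regional transcription factors were in part lower at E17.5. Of 18 early patterning genes, 8 were lower and none higher, 12 after quantile normalization. Shh, the ligand of the ventral midline, was at 24.4 and 37.0 FPKM at E12 and at 2.63 and 3.22 FPKM at E17.5. Rax, which specifies the hypothalamus and later marks tanycytes, was at 7.39 and 17.8 and then at 2.29 and 1.71 FPKM, and Nkx2-4 at 12 and 37.1 and then at 5.67 and 3.43 FPKM. Vax1, a homeobox gene of the anterior hypothalamus and optic stalk, was at 12.6 and 19.3 and then at 2.58 and 1.98 FPKM in the mutant, and in wild-type at 11.5 and 17.3 and then at 5.34 and 5.19 FPKM. At E17.5 both mutant libraries lay below both wild-type libraries, and at each E12 stage the mutant lay above wild-type. Its stage difference was -2.35 in the mutant and -1.27 in wild-type, a difference of -1.08 (SE 0.146, limma adjusted p = 0.563), which did not pass. The difference was -1.06 with either E12.5 library left out and -1.09 with either E12.0 library left out. In the Sonic hedgehog pathway 4 of 12 genes were lower, among them Gli1, a transcription factor and target of the pathway, at 5.49 and 3.87 and then at 1.39 and 1.11 FPKM, and 9 of 12 after quantile normalization. The signal transducer Smo, at 28.8 and 33.8 and then at 12.7 and 12.1 FPKM, and the receptor Ptch1, at 42.8 and 42.4 and then at 18.7 and 16.8 FPKM, were the remaining members lower apart from Shh.

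Regulators of single nuclei are taken in turn. Otp, which makes neuroendocrine neurons of the paraventricular and supraoptic nuclei, was at 34.8 and 46.8 FPKM at E12 and at 6.21 and 3.52 FPKM at E17.5. Pou3f2, a partner in the same lineage, was at 38.6 and 36.2 and then at 12.7 and 14.9 FPKM, and Sim1, required for that lineage, at 15.9 and 23.0 and then at 8.23 and 8.34 FPKM. Arnt2, the dimer partner of Sim1, went the other way without being counted, with 27.6 and 41.6 and then 53.7 and 51.4 FPKM. So 3 of these 4 were lower. Of the 5 suprachiasmatic regulators, Lhx1 was lower, with 10.2 and 10.9 and then 4.78 and 4.55 FPKM, and Rora higher, with 0.783 and 0.942 and then 3.02 and 3.37 FPKM. Six6 was at 4.70 and 9.97 and then at 4.08 and 4.16 FPKM, Zfhx3 at 6.25 and 9.05 and then at 9.75 and 7.64 FPKM, and Rorb at 1.18 and 1.55 and then at 3.21 and 3.34 FPKM. The median of this list, 0.18, became -0.12 after quantile normalization. Six6 was also at 3.49 and 8.93 and then at 6.14 and 5.73 FPKM in wild-type, so that the mutant lay above wild-type at both E12 stages and below it at E17.5 (difference -0.68, limma adjusted p = 0.749).

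Of 12 ventromedial and arcuate regulators 3 were lower in the mutant (7 after quantile normalization) and 6 in wild-type, with medians of -0.70 and -1.09. Dlx2, a regulator of GABAergic neurons, was at 31.0 and 36 and then at 6.80 and 6.28 FPKM, Nkx2-2 at 14.6 and 15.8 and then at 4.65 and 3.83 FPKM, and Dlx5 at 14.3 and 18.5 and then at 7.35 and 7.20 FPKM. Dlx5 in wild-type was at 33.3 and 17.7 and then at 6.05 and 5.76 FPKM, and its stage differences of -1.07 and -1.87 did not pass the test between genotypes (limma adjusted p = 0.749). Of 12 mammillary regulators 6 were lower and none higher. Uncx was at 32.6 and 49.7 and then at 7.61 and 5.81 FPKM, Barhl1 at 11.5 and 29.9 and then at 2.91 and 2.58 FPKM, and Sim2 at 6.56 and 10.8 and then at 1.05 and 0.744 FPKM. All 3 are transcription factors of the mammillary region, and all 3 were higher at E12.5 than at E12.0 before being lower at E17.5.

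**Figure D3:**
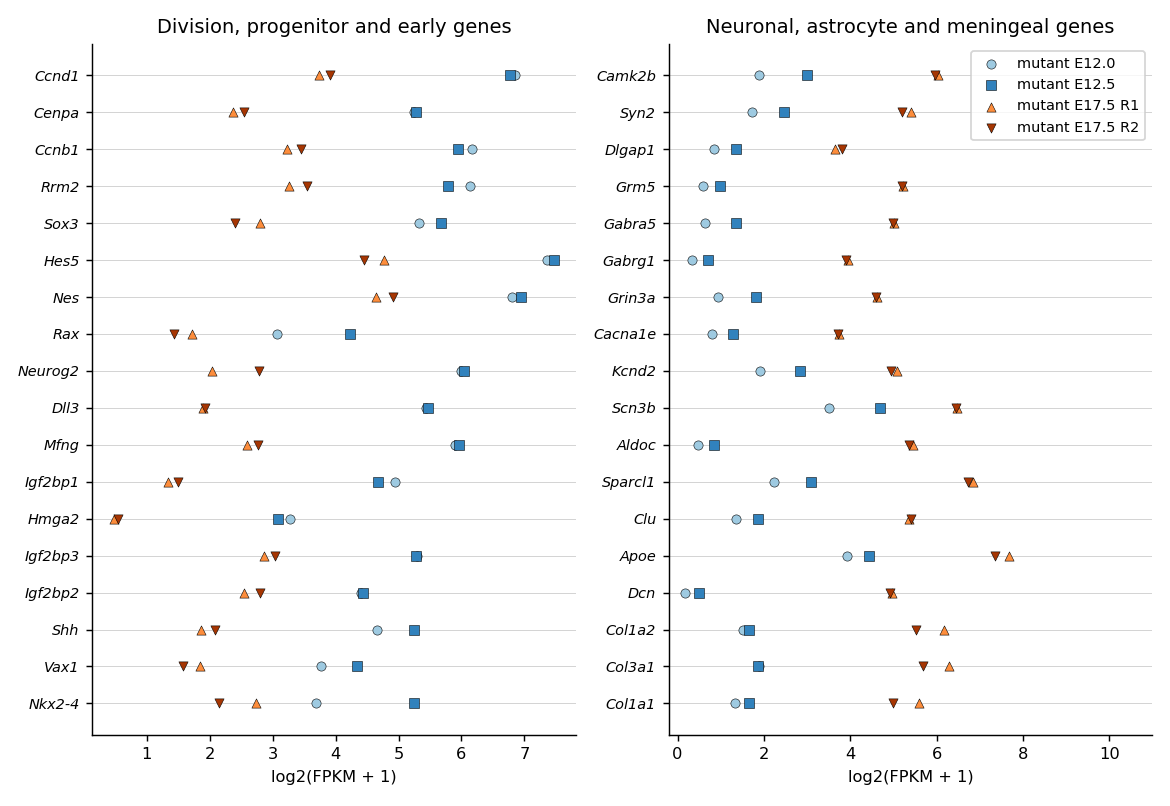
Level (log2 of FPKM + 1) of named genes in the 4 mutant libraries, with a symbol per library. Left, genes of division, progenitors, neurogenesis and patterning; right, genes of synapses, receptors, channels, astrocytes and meninges; the E17.5 symbols lie to the left of both E12 symbols in the first set and to the right in the second.

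Genes of mature neurons were higher at E17.5. Of 14 genes of the mature neuronal cytoskeleton and its markers, 11 were higher and none lower (median 1.23), with 8 higher after quantile normalization and 6 when centred on the median member. Eno2, the neuronal enolase, was at 2.79 and 5.67 FPKM at E12 and at 40.1 and 33.4 FPKM at E17.5. Mapt, the axonal microtubule protein tau, was at 45.9 and 101 and then at 421 and 399.6 FPKM, and Thy1, a surface protein of mature neurons, at 0.116 and 0.0503 and then at 4.61 and 5.16 FPKM. The list of young neuron genes was divided, with 3 of 16 higher and 4 lower, and 6 higher after quantile normalization. Among all members 19.9% were higher and 5.4% lower. Gap43, of growing axons, was at 96.7 and 189 and then at 865 and 806 FPKM, whereas Nhlh1, a factor of newborn neurons, was at 7.20 and 7.60 and then at 0.402 and 0.611 FPKM. Nhlh2 and Sox11 were 3.88-fold and 2.44-fold lower by their means.

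At synapses, 21 of 25 vesicle and postsynaptic scaffold genes were higher and none lower (median 1.71), and 16 were higher in wild-type. Camk2b, a kinase subunit of the postsynapse, was at 2.71 and 6.97 FPKM at E12 and at 64.9 and 61.0 FPKM at E17.5, a 13.0-fold difference of means. Syn2, of synaptic vesicles, was at 2.30 and 4.56 and then at 41.2 and 35.8 FPKM. Dlgap1, of the postsynaptic scaffold, was at 0.810 and 1.55 and then at 11.4 and 13.1 FPKM. In each of these genes both E17.5 libraries lay well above E12.5, the higher of the early pair. All 25 were also higher at E12.5 than at E12.0, with a median of 0.61 against 0.35 over members.

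Receptors for GABA and glutamate with the chloride carriers had 21 of 23 higher and none lower, with a median of 2.54. Grm5, a metabotropic glutamate receptor, was at 0.515 and 0.969 FPKM at E12 and at 36.1 and 35.9 FPKM at E17.5, a 48.5-fold difference of means. Gabra5 and Gabrg1, subunits of the GABA-A receptor, were at 0.547 and 1.55 and then at 31.6 and 30.8 FPKM, and at 0.254 and 0.631 and then at 14.5 and 14 FPKM. Grin3a, an NMDA receptor subunit, was at 0.907 and 2.51 and then at 23.7 and 23.3 FPKM. The E17.5 replicates of these 4 genes differed by less than 0.10 on the log2 scale. The carrier that exports chloride from mature neurons, Slc12a5, was at 5.25 and 11.4 and then at 55.3 and 43.6 FPKM, while the importer Slc12a2 was at 11.5 and 13.2 and then at 15.1 and 15 FPKM; the pair is named after its values were seen. Among 18 voltage-gated ion channels 14 were higher and none lower, but 7 after quantile normalization. Cacna1e, a calcium channel, was at 0.744 and 1.44 and then at 12.4 and 12 FPKM, and Kcnd2, a potassium channel, at 2.73 and 6.14 and then at 32.9 and 29.7 FPKM. The sodium channel subunit Scn3b was 4.96-fold higher by its means.

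Transmitter identity genes gave another picture, with 2 of 15 higher and none lower (median 0.28, close to that of all members). Among all symbols 11.6% were higher and 3.01% lower. Gad1, which makes GABA, was at 8.09 and 12.2 FPKM at E12 and at 73.3 and 65.8 FPKM at E17.5. The vesicular glutamate transporter Slc17a6 was at 26.7 and 37.8 and then at 59.2 and 57.2 FPKM and was not counted. Slc17a7, the transporter typical of cortex, was at 0.198 and 0.144 and then at 0.239 and 2.46 FPKM, so that replicate 2 alone stood high.

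Neuropeptide precursors were mostly higher at E17.5, with 18 of 31 higher, 1 lower and 12 neither (median 1.37, and 1.58 in wild-type). Nts, the neurotensin precursor, was at 0.872 and 1.49 FPKM at E12 and at 22.6 and 27.2 FPKM at E17.5. Npy, a peptide of feeding neurons, was at 2.28 and 2.15 and then at 26.5 and 47.0 FPKM, and Cck, the cholecystokinin precursor, at 1.26 and 1.22 and then at 19.5 and 21.9 FPKM. Penk, the enkephalin precursor, was at 0.131 and 0.284 and then at 11.3 and 9.15 FPKM. At E17.5 the genotypes overlapped for Npy, Cck and Penk, and for Nts both mutant libraries lay above the wild-type values of 20.4 and 17.4 FPKM. The list's lower gene was Cartpt, of feeding circuits, at 13.9 and 12 and then at 4.37 and 3.58 FPKM. Pmch, the melanin-concentrating hormone precursor named after its values were seen, was unlike most in being well above 0 early, with 8.71 and 37.1 and then 65.1 and 56.2 FPKM.

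Avp, Oxt and Crh, which are made by neuroendocrine neurons, were absent or nearly so at E12 and low at E17.5. Avp, the vasopressin precursor, was listed at 0 in both E12 mutant libraries and stood at 9.38 and 3.43 FPKM at E17.5, against 0 and 0.0892 and then 71.6 and 62.1 FPKM in wild-type. Oxt, the oxytocin precursor, was listed at 0 in all 4 E12 libraries and stood at 1.39 and 1.43 FPKM in the mutant and 8.10 and 7.72 FPKM in wild-type at E17.5. Crh, whose peptide drives the stress axis, had 1.77 and 1.60 FPKM in mutant and 4.71 and 3.55 FPKM in wild-type E17.5 libraries, with at most 0.0432 FPKM before. With no or almost no signal at E12, these stage differences rest on the E17.5 libraries. For Oxt the E12 libraries, all listed at 0, also add no spread to the test, so its small p rests in part on values at the floor. In limma's test the stage difference of Oxt was smaller in the mutant by 1.89 on the log2 scale (coefficient -1.89, SE 0.144, adjusted p = 0.0466), and both mutant libraries at E17.5 lay below both wild-type libraries. The call was lost under several other settings, among them with the replicate number as a block (adjusted p = 0.256), without any of the 4 E17.5 libraries in turn (0.280 to 0.467) and with a pseudocount of 0.1 (0.724). Avp had the larger difference, -3.26 (SE 0.522), and Crh -0.89 (SE 0.202), and neither passed (limma adjusted p = 0.749 for both). With either E12.5 library left out the difference of Avp was -3.32. Oxt and Crh averaged 0.704 and 0.844 FPKM over the mutant libraries, below the limit for members, and are shown because they are fixed by the rule for named genes. Of the 12519 genes tested, 4 passed, or 0.032%, and 494, or 3.95%, had an unadjusted p under 0.05. The number that passed was larger when any 1 of the 4 E12 libraries was left out. Then 1 early library stood for a genotype, and 2 residual degrees of freedom were left. The spread in the test was then that of the E17.5 replicates alone. Counts from these fits are therefore not read as numbers of genes that differ between genotypes.

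**Figure D4:**
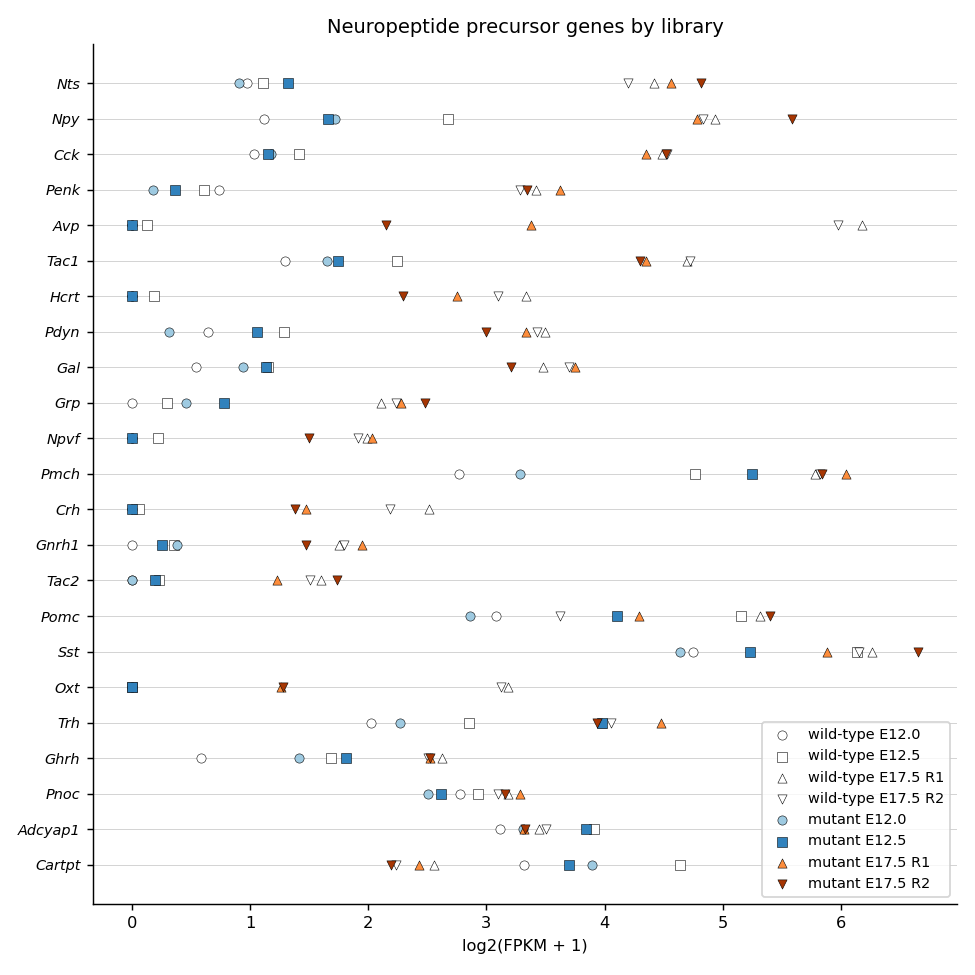
Level (log2 of FPKM + 1) of the neuropeptide precursor genes that reached 1 FPKM in any library, in the 4 mutant (filled) and 4 wild-type (open) libraries, ordered by the stage difference in the mutant. In Avp, Oxt, Crh, Hcrt, Tac1 and Pdyn both mutant libraries at E17.5 lie to the left of both wild-type libraries.

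Genes that process and store peptides were higher in 8 of 11 cases and lower in none. Scg2, a granin of secretory granules, was at 5.37 and 11.5 FPKM at E12 and at 149 and 138 FPKM at E17.5, and Vgf, a secreted granin relative, at 1.12 and 1.85 and then at 19.5 and 15.1 FPKM. Chgb and Chga, the chromogranins, were 4.97-fold and 3.86-fold higher by their means. In wild-type Scg2 stood at 152 and 155 FPKM at E17.5, just above the mutant, and the difference between genotypes in its stage difference was -0.11 (limma adjusted p = 0.766). Receptors for hormones and metabolic signals were higher in 13 of 22 cases and lower in none, but at low levels, and in 6 after quantile normalization and 8 when centred on the median member. Lepr, the leptin receptor, was at 0.171 and 0.150 and then at 3.20 and 3.49 FPKM, Nr3c1, the glucocorticoid receptor, at 0.925 and 1.65 and then at 6.67 and 6.35 FPKM, and Npy1r at 0.305 and 0.339 and then at 3.05 and 3.48 FPKM. Of the 22, 11 averaged 1 FPKM or more over the mutant libraries.

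Astrocyte and tanycyte genes had the third highest median, with 13 of 16 higher and none lower (median 2.18). Aldoc, a glycolytic enzyme typical of astrocytes, was at 0.378 and 0.791 FPKM at E12 and at 42.9 and 40.0 FPKM at E17.5, and Sparcl1, a matrix protein they secrete, at 3.71 and 7.5 and then at 114 and 105 FPKM. Clu, or clusterin, was at 1.57 and 2.67 and then at 40.3 and 41.5 FPKM, and Apoe, the lipid carrier, at 14.2 and 20.7 and then at 204 and 163 FPKM. Of 14 oligodendrocyte lineage genes 7 were higher and 1 lower, and 2 higher after quantile normalization. Pdgfra, the receptor of oligodendrocyte precursors, was at 0.456 and 0.806 and then at 16.8 and 16.3 FPKM, whereas Olig2, named after its values were seen, which also serves neural progenitors, was at 23.8 and 24.9 and then at 11.7 and 9.56 FPKM. Olig1 was 3.42-fold and Cspg4 4.25-fold higher by their means.

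Genes of the meninges had the highest median of all lists in the mutant, 3.01, and a median of 2.37 in wild-type, with 12 of 14 higher in each. Dcn, the proteoglycan decorin, was at 0.136 and 0.404 FPKM at E12 and at 30.1 and 29.3 FPKM at E17.5, and Col1a2, a chain of fibrillar collagen, at 1.88 and 2.13 and then at 71.0 and 44.7 FPKM. Col3a1 was 24-fold and Col1a1 21.1-fold higher by their means. Dcn at E17.5 was above the wild-type values of 22.6 and 13.4 FPKM, and its stage difference exceeded that of wild-type by 0.79 (SE 0.320, limma adjusted p = 0.749). The summed level of the list was 96.7 and 93.7 FPKM at E12 and 438 and 329 FPKM at E17.5. Its genes belong to tissue that covers the brain, and how much of it was in each dissection was not tested. Pericyte and smooth muscle genes were higher in 8 of 10 cases, in 3 after quantile normalization and in 5 when centred on the median member. Vtn was at 3.27 and 3.72 and then at 34.1 and 25.4 FPKM, and Acta2, smooth muscle actin, at 0.250 and 0.0892 and then at 5.57 and 3.03 FPKM. Endothelial and barrier genes were higher in 8 of 16, and in 3 after quantile normalization, with Ly6c1 at 0.10 and 0.268 and then at 4.25 and 4.42 FPKM and Cldn5, a tight junction protein, at 11 and 23.8 and then at 49.4 and 39.0 FPKM. Microglia and macrophage genes were higher in 9 of 15, led by Mrc1, the mannose receptor of border macrophages, at 0.190 and 0.147 and then at 9.23 and 7.34 FPKM, and C1qa, of complement, at 1.43 and 3.64 and then at 14.4 and 12.6 FPKM. None of these vascular and immune lists had a lower gene.

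Blood carried the change from embryonic to adult globin. Hbb-y, an embryonic beta-type globin, was at 1424 and 1455 FPKM at E12 and at 3.11 and 4.78 FPKM at E17.5. Hba-x, the embryonic alpha-type globin, was at 470.1 and 280.0 and then at 2.17 and 2.84 FPKM, and Hbb-bh1 at 193 and 60.7 and then at 0.167 and 0.525 FPKM. The adult genes share 1 composite symbol in the E12 table, so they were joined by accession, outside the rule for members and after their values were seen. The adult alpha globins stood at 384 and 528 and then at 1548 and 1014 FPKM, and the adult beta globins at 46.9 and 109 and then at 3185 and 3059 FPKM. Embryonic genes thus made up 82.9% and 73.8% of globin FPKM at E12.0 and E12.5 and 0.115% and 0.199% at E17.5. Alas2, the heme enzyme of red cells, was at 6.21 and 7.42 and then at 37.2 and 37.6 FPKM.

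Markers of tissue next to the hypothalamus differed between the 2 late mutant libraries. Ttr, the transthyretin of choroid plexus, was at 0.122 and 0.161 FPKM at E12, at 4.76 FPKM in E17.5 replicate 1 and at 333 FPKM in replicate 2. The 8 choroid plexus genes summed to 20 and 14.1 FPKM at E12 and to 12.4 and 356 FPKM at E17.5, so their sum was higher than at E12 in replicate 2 and not in replicate 1. Ttr alone made up most of the sum in replicate 2. The 11 telencephalic genes summed to 51.0 and 51.3 and then to 47.0 and 104.7 FPKM, and the list median of 0.75 became 0.08 without replicate 2 and 1.09 without replicate 1. Neurod6, of cortical neurons, was at 0.765 and 3.01 and then at 8.59 and 33.7 FPKM, and Emx1 at 0.597 and 0 and then at 0.489 and 4.07 FPKM. In the wild-type E17.5 libraries Ttr stood at 50 and 133 FPKM, between the mutant replicates. Without replicate 2, 2429 members were higher and 705 lower. Pituitary hormones were present in both: Gh, growth hormone, was listed at 0 at E12 and stood at 35.8 and 41.0 FPKM at E17.5, and Tshb at 7.09 and 13.1 FPKM, with 3 of 13 pituitary genes higher, and 8 after small RNA genes were left out and the libraries rescaled. Of all symbols 11.6% were higher, and 3 of the 13 averaged 1 FPKM or more. Skeletal muscle genes summed to 0.620 and 0.853 and then to 18.05 and 16.5 FPKM, 4 of 8 being higher. Thalamic and prethalamic genes had 1 of 12 higher and 2 lower, against 11.6% and 3.01% of all symbols. Their median of 0.13 became -0.30 after quantile normalization. The part of these tissues in the results on other genes was not tested.

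**Figure D5:**
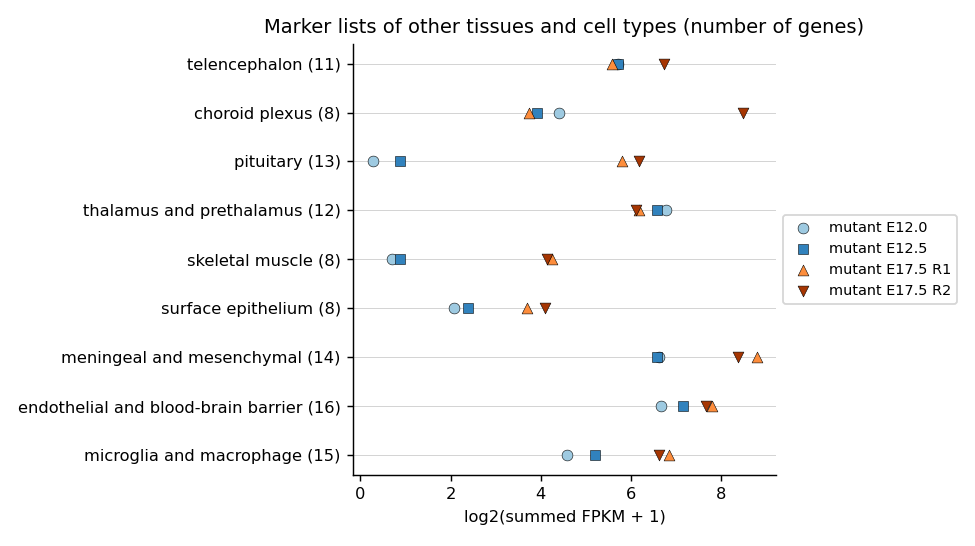
Summed level (log2 of summed FPKM + 1) of marker lists of other tissues and cell types in the 4 mutant libraries, with the number of genes. The choroid plexus sum, most of it Ttr there, and the telencephalic sum are high in E17.5 replicate 2 alone. Those of pituitary, muscle and meningeal genes are high in both E17.5 libraries.

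Among genes that act on chromatin and RNA, the replication-dependent histones had the lowest median after the embryonic globins, with 59 of 62 lower, none higher and a median of -2.95. Hist1h2bp was at 125 and 128 FPKM at E12 and at 9.85 and 5.19 FPKM at E17.5, and Hist1h4i at 465 and 505 and then at 42.2 and 23.1 FPKM. These genes are near copies of each other, so single members are uncertain. Of the BAF subunits typical of progenitors, Actl6a was lower, at 47.5 and 51.6 and then at 13.5 and 15.1 FPKM, and Dpf2, Ss18 and Phf10 were not counted, at 22.3 and 29.1 and then 14.3 and 13.3, at 21.1 and 26.7 and then 14.7 and 15.6, and at 18.8 and 26.3 and then 27.3 and 30.9 FPKM. Their neuronal counterparts Actl6b, Ss18l1 and Dpf3 were higher, at 19.9 and 35.4 and then 62.5 and 56.3, at 18.6 and 34.4 and then 52.6 and 51.2, and at 3.90 and 5.99 and then 11.8 and 10.0 FPKM, and Dpf1 was not, at 32.1 and 47.2 and then 41.2 and 41.0 FPKM. After quantile normalization or centring on the median, none of the neuronal subunits was counted, and their median of 1.01 became 0.73 and 0.75. Of 12 DNA methylation and Polycomb genes, Uhrf1, which guides maintenance methylation at replication, was lower, at 58.0 and 47.7 and then at 7.40 and 8.51 FPKM, and Tet1 higher, at 3.0 and 3.70 and then at 8.04 and 8.52 FPKM. So 1 of the 12 was higher and 1 lower, against 19.9% and 5.4% of all members.

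Among 13 neuronal splicing regulators 4 were higher and 1 lower, against 19.9% and 5.4% of all members. Rbfox1 was at 1.88 and 6.15 FPKM at E12 and at 25.8 and 28.1 FPKM at E17.5, and Khdrbs2 at 3.05 and 7.08 and then at 21.6 and 22.0 FPKM. Ptbp1, which represses neuronal exons in progenitors and is named after its values were seen, was at 50.7 and 54.1 and then at 20.9 and 24.1 FPKM. Of 16 imprinted genes 4 were higher and 4 lower (median 0.11, and -0.15 when centred on the median member). Among all members 19.9% were higher and 5.4% lower. Igf2 was at 6.86 and 6.62 and then at 77.5 and 57.0 FPKM, and H19, which lies beside it, at 29.1 and 22.8 and then at 148 and 111 FPKM. Zim1 was at 0.976 and 2.57 and then at 15.7 and 13.8 FPKM, while Dlk1, a Notch relative, was at 77.6 and 117 and then at 23.3 in each library. Igf2 is also on the meningeal list. Of 75 ribosomal protein genes 4 were lower, near the 5.4% of all members that were, and none higher, against 19.9% of members. Nuclear genes of the respiratory chain had 4 of 80 higher and none lower, and 2 higher after quantile normalization. The medians of these 2 lists were -0.04 and 0.42, and the ribosomal median became 0.24 after quantile normalization.

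Beyond Oxt, 3 genes passed the limma test between genotypes. Hist1h2ba, a histone gene with near copies and so uncertain, was at 176 and 204 FPKM in the mutant at E12 against 1.01 and 1.74 FPKM in wild-type; at E17.5 the mutant had 18.1 and 7.69 FPKM and wild-type 21.2 and 13.6 FPKM. Gm12238, a predicted gene, was at 33.8 and 19.3 FPKM in the mutant at E12 and listed at 0 in the other 6 libraries. Snord34, a small nucleolar RNA, was at 4665 and 766 FPKM in wild-type at E12 and listed at 0 in the other 6. In all 3 the genotypes were apart at E12 and not at E17.5. For Gm12238 and Snord34 the E17.5 libraries, all listed at 0, added no spread to the test. Each lost its call when any of the 4 E17.5 libraries was left out, with limma adjusted p of 0.0537 to 0.167 for Hist1h2ba, 0.0926 to 0.225 for Gm12238 and 0.123 to 0.467 for Snord34. Genes that did not pass with all libraries are given by their values (limma adjusted p = 0.749 unless stated). Tbr1 and Eomes, telencephalic regulators, were among those whose stage difference was higher in the mutant. Tbr1 was at 9.30 and 4.2 and then at 5.91 and 9.83 FPKM in the mutant and at 20.1 and 6.24 and then at 5.08 and 4.15 FPKM in wild-type. Eomes was at 7.13 and 1.75 and then at 5.74 and 8.39 FPKM, against 6.2 and 2.64 and then 3.58 and 3.03 FPKM. In each of them, both mutant libraries at E17.5 lay above both wild-type libraries. The 11 telencephalic genes of the marker list summed to 44.7 and 43.0 FPKM in wild-type at E17.5 against 47.0 and 104.7 in the mutant, and their part in these values was not tested. Arl4d, a small GTPase, was at 1.01 and 2.38 and then at 4.13 and 5.47 FPKM in the mutant and at 2.40 and 3.65 and then at 3.44 and 3.29 FPKM in wild-type. Kif2a, a kinesin, was at 13.0 and 18.6 and then at 30.7 and 31.4 FPKM, against 34.2 and 23.6 and then 28.2 and 31.7 FPKM. With either E12.5 library left out, E12.0 alone stood for the early stage. The difference was then 1.38 for Kif2a in place of 0.88, and 1.16 for Arl4d in place of 1.01. With either E12.0 library left out it was 0.38 for Kif2a and 0.86 for Arl4d. For Kif2a the genotypes overlapped at E17.5 and the wild-type E12.0 library was the highest of the early ones.

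On the other side, Eno1b, an enolase gene with a near-identical copy and so uncertain, was at 30.9 and 19.2 and then at 35.4 and 32.9 FPKM in the mutant and at 14.2 and 10.6 and then at 35.7 and 34.2 FPKM in wild-type. Toporsos, a noncoding RNA, was at 21.4 and 24.9 and then at 11.3 and 9.34 FPKM, against 6.15 and 21.4 and then 12.4 and 12.4 FPKM in wild-type. Rangrf was at 10.4 and 16.2 and then at 9.21 and 7.43 FPKM, against 2.91 and 12 and then 8.04 and 9.01 FPKM. Each of these was higher in the mutant at both early stages, and none passed with all libraries (limma adjusted p = 0.483 for Eno1b and 0.749 for Toporsos and Rangrf). Leaving out either E12.5 library gave 1 and the same contrast, in which E12.0 alone stood for the early stage. The spread left was that of the E17.5 replicates alone, so only the size of the difference is given. The difference for Eno1b was then -1.10, against -0.97 with all libraries and -0.84 with either E12.0 library left out. That for Toporsos was -1.89, against -1.18 and -0.46, and that for Rangrf -1.58, against -1.01 and -0.44.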

How the data were processed

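The deposited tables hold FPKM values for 8 libraries of mouse embryonic hypothalamus, made by the authors from paired-end Illumina HiSeq 2500 reads; TopHat, Cufflinks and mm9 are named in the submitters' processing notes, with no versions. E12 tables (23737 rows) are per gene and E17.5 tables (32952 rows) per transcript. Rows were summed by gene symbol; 8 E12 rows without a gene name, up to 0.036% of FPKM, were left out. Depth is not stated in the tables: the steps of low FPKM values were read as whole fragments for the E17.5 mutant libraries, where 81.7% and 81.5% of the values used lay within 0.1 of a whole number; at E12 36.3% and 36.1% did, so depth there is unknown.

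A pseudocount of 1 FPKM was used, and a fold on this log2 scale understates changes of low genes. A gene was counted as higher or lower at E17.5 by a difference of at least 2-fold with no overlap of libraries; stages were not tested. The stage by genotype difference was tested with limma 3.58.1 (trend, R 4.3.3; 3 residual degrees of freedom) with stage, genotype and genotype at E17.5 as terms, with Benjamini-Hochberg adjustment over the 12519 genes that averaged 1 FPKM or more; the method was tested on simulated data. Other steps used pandas 2.3.3, matplotlib 3.10.9 and numpy 2.4.6 under Python 3.11.15.

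Genes named are Foxd1, the 15 with the largest stage difference in each direction, up to 8 in each direction by the test, up to 4 of each list by size, lists of 5 or fewer whole, and Avp, Oxt and Crh; predicted, small RNA, histone and sex-linked genes were skipped except where they passed the test or were on a list. Others are said to be named after their values were seen. A few genes chosen this way are left out of the text. The members and the 46 gene lists were chosen with earlier results of these data known. Alternatives covered the pseudocount, filter, scaling, rows of a symbol, the replicate block and each library left out. P-values measure the spread between libraries, which may be technical.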

Additional observations from a re-analysis of the deposited data

Results flagged for a closer look

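The stage difference of 4 genes was not the same in the mutant and in wild-type by limma's test of the difference itself. Oxt had a difference of -1.89 between genotypes (adjusted p = 0.0466) and was detected at E17.5 alone. Hist1h2ba had -6.82 (adjusted p = 0.0466), Gm12238 -4.73 (adjusted p = 0.0244) and Snord34 10.9 (adjusted p = 0.0459), and in these 3 the genotypes were apart at E12. Libraries listed at 0 add no spread to the test, which holds for Oxt at E12 and for Gm12238 and Snord34 at E17.5. Over the alternatives that kept all 8 libraries, limma's adjusted p for Oxt ranged from 0.0125 to 0.724.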

How the results depend on the processing

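The 2479 higher members became 1150 with a pseudocount of 5, 1506 with a filter of 5 FPKM, 1589 after quantile normalization and 654 at 4-fold. The 674 lower members became 395 with a pseudocount of 5, 1198 after quantile normalization, 183 at 4-fold and 1048 when centred on the median member. Leaving out each mutant library gave 1964 to 3315 higher and 633 to 815 lower. With symbols resting on the same accessions in both tables, an alternative chosen after seeing the data, 2419 were higher and 651 lower, and with 1 accession in both, 1707 and 514.

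The 4 genes past limma's threshold became 1 with a pseudocount of 0.1, 1 with a pseudocount of 5, 2 without small RNA genes and 2 with robust spread. They became 0 with a filter of 5 FPKM, with no filter and after quantile normalization, where 340, 877 and 482 genes had an unadjusted p under 0.05. Leaving out each library gave 0 to 1465, the 0 without wild-type E17.5 replicate 1, where 186 genes had an unadjusted p under 0.05. The upper end came from the fit without wild-type E12.5, where the spread was that of the E17.5 replicates alone. The same holds for each fit without an E12 library. Their counts are therefore not read as numbers of genes that differ between genotypes. The cause of the 0 was not tested. With the replicate block, 1 gene passed (Hist1h2ba, limma adjusted p = 0.00692). The deviations of same-numbered E17.5 replicates correlated at -0.03 across genes. No label says whether these replicates shared more than a number, and a correlation from 2 libraries per genotype cannot show it. None of the single gene differences computed under the alternatives was reversed where it had been counted or had passed. Of the list medians 5 changed sign under a scaling: after quantile normalization the suprachiasmatic median of 0.18 became -0.12, the thalamic and prethalamic one of 0.13 became -0.30, the immediate early one of 0.24 became -0.13 and the ribosomal one of -0.04 became 0.24, and when centred on the median member the imprinted one of 0.11 became -0.15. Depth at E12 is unknown, which limits what can be said of genes listed at 0 there.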

Other observations

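Several gene groups have not been described above. Of 13 circadian clock genes 2 were higher at E17.5 in the mutant and none lower. The share that was higher lies between the 11.6% of all symbols and the 19.9% of members. Of the 13, 12 averaged 1 FPKM or more. Arntl, a core activator of the clock, was at 2.55 and 5.0 FPKM at E12.0 and E12.5 and at 9.86 and 10.5 FPKM at E17.5, and Bhlhe40, a clock repressor, at 0.773 and 1.38 and then at 3.60 and 3.64 FPKM; after quantile normalization neither was counted. Of 10 immediate early genes 2 were lower and none higher, with Ier2 at 12.8 and 13.3 and then at 3.74 and 3.66 FPKM and Dusp1, a phosphatase of MAP kinases, at 13.5 and 17.7 and then at 7.20 and 7.18 FPKM. Among all symbols 3.01% were lower and 11.6% higher.

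Genes of glycolysis and hypoxia were higher in 4 of 10 cases and lower in 1, with 2 higher after quantile normalization. The hexokinases went opposite ways: Hk1, the form of brain, was at 12.8 and 22.7 and then at 76.0 and 70.1 FPKM, and Hk2 at 5.06 and 5.35 and then at 1.43 and 1.74 FPKM. Pfkp, a phosphofructokinase, was at 2.98 and 5.32 and then at 23.1 and 24.5 FPKM. Of 10 complement, MHC class I and interferon genes 2 were higher, and 1 after quantile normalization. The share is near the 19.9% of all members and above the 11.6% of all symbols, and 4 of the 10 averaged 1 FPKM or more. Ifitm3 was at 1.07 and 1.23 and then at 7.90 and 9.73 FPKM. B2m, the light chain of MHC class I, was at 15.2 and 15.6 and then at 29.2 and 36.9 FPKM. All of these genes lay on the same side of E12 in the wild-type E17.5 libraries.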
